A study of Mus musculus with 39 samples.

Results

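Gene expression in the amygdala was compared between 5 PianpKO mice and 4 Control mice, which together give 9 of the 39 arrays of the series. All samples labelled as PianpKO amygdala or Control amygdala were taken, and the difference of the mean log2 levels was measured for each of 25429 probe sets, of which 24675 carry 1 gene symbol and 754 are unnamed here. PianpKO mice lack *Pianp* in all tissues. They descend from the Pianp tm1a(KOMP)Wtsi line, which was first bred to the B6N.Cg-Tg(ACTFLPe)9205Dym/CjDswJ strain to give floxed *Pianp* alleles and then to B6.C-Tg(CMV-cre)1Cgn/J, whose Cre transgene deletes the floxed segment from early in development. Control mice (labelled FL) carry the floxed *Pianp* alleles without that deletion, so the groups share the floxed line and differ in the breeding to the Cre strain as well as in the deletion. All mice were males with no earlier experiment. The paper gives their age only as a broad range shared by several kinds of experiment, so the age of each mouse is not known here. The amygdala was punched by hand from coronal brain slices, and its total RNA was hybridised to Affymetrix mouse gene arrays, 1 array per mouse. By the numbers that the labels repeat across regions, the same PianpKO and Control mice also gave cortex, hippocampus and hypothalamus samples, except that Control mouse 4 has no amygdala array in this comparison.

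*Pianp* encodes a neuronal type I membrane protein that is cleaved by proprotein convertases, ADAM proteases and γ-secretase and that binds the immune receptor Pilra. In neurons its ectodomain binds the sushi domain of GB1a, the subunit that places GABAB receptors in axons, where these receptors lower transmitter release. Ajap1 and the amyloid precursor protein App bind the same domain. The amygdala, which processes fear, anxiety and social signals, holds pallial glutamatergic neurons in its basolateral nuclei and mostly GABAergic neurons in its central, medial and intercalated nuclei, and it borders the striatum, the hypothalamus and the piriform cortex.

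The deposited levels are on the log2 scale, where a difference of 1 is a factor of 2 in array signal, and array signal is compressed at low and high levels. All 9 amygdala arrays had a median of 4.62. Arrays of 1 genotype correlated across probe sets at 0.9915 to 0.9951 in PianpKO amygdala and at 0.9912 to 0.9943 in Control amygdala. Of the 9 genes chosen as markers of the amygdala, *Lmo3*, a LIM-domain cofactor of basolateral neurons, averaged 9.12 in PianpKO and 9.18 in Control amygdala, against 8.26 to 8.42 in Control arrays of the other regions. *Rspo2*, a Wnt pathway activator of basolateral principal neurons, averaged 7.35 in PianpKO and 7.24 in Control amygdala, above Control hippocampus (6.54) and hypothalamus (5.83) and below Control cortex (7.59). *Prkcd*, a kinase of central amygdala neurons and of the thalamus, averaged 6.30 in PianpKO and 6.38 in Control amygdala, far below Control hippocampus (10.36). In Control arrays *Crh* averaged 4.88 in amygdala, 4.80 in cortex, 4.23 in hippocampus and 5.25 in hypothalamus. *Meis2* averaged 6.72, 6.55, 5.80 and 6.67 in the same order. The rest of the 9 are not set against the other regions here. One array stood apart. PianpKO replicate 2 had the highest mean level of 7 anterior pituitary genes (7.87, against 4.60 to 5.70 in the other PianpKO arrays and 3.99 to 5.52 in Control arrays) and of 10 choroid plexus genes (6.67, against 4.90 to 5.61 in the other PianpKO arrays and 5.29 to 5.75 in Control arrays). The list of pituitary genes was added after the data were seen. Results that rest on this array are given with and without it below.

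*Pianp* itself fell in the PianpKO amygdala. Its level was 5.61, 5.88, 6.06, 6.07 and 6.17 in PianpKO arrays, against 7.90, 7.81, 8.12 and 7.94 in Control arrays. Every PianpKO array lay below every Control array. The difference of -1.98 (SE 0.115, 95% interval -2.24 to -1.73) leaves a signal ratio of 0.253, with a limma p-value adjusted over all probe sets (adjusted p) of 0.000117. A two-sided exact permutation test of the single gene gave p = 0.00794, the smallest that 126 splits of these arrays allow. No source used here says which probes lie in the deleted segment, so the residual signal was not divided between remaining transcript and background.

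Across all probe sets, 2 (0.00787%) passed an adjusted p of 0.05, *Pianp* as the lower and *Ccl28* as the higher one (0.00393% in each direction). *Ccl28*, a chemokine of mucosal and glandular epithelia that acts on Ccr10 and Ccr3, rose in the PianpKO amygdala. Its level was 5.18, 4.96, 4.93, 4.80 and 5.19 in PianpKO arrays, against 4.07, 3.87, 4.29 and 4.09 in Control arrays. The groups did not overlap. The Control mean of 4.08 lay below the array median of 4.62, and array signal is compressed at low levels. The difference was 0.93 (SE 0.106, adjusted p = 0.0474). That adjusted p sits close to the threshold: without any single array it was 0.0501 (without PianpKO replicate 4) to 0.204 (without Control replicate 1), so the call was lost in each of the 9 fits with 1 array left out, while the difference stayed between 0.86 and 1.00. Without PianpKO replicate 1, *Esr1* passed together with *Pianp*. Of 21 chemokine and chemokine receptor genes, 5 were higher and 16 lower (76.2%, where 51.3% of all probe sets were lower). *Ccl28* was the higher member with an unadjusted p under 0.05, and *Ccl12* (-0.22) and *Ccl19* (-0.31, or -0.17 without Control replicate 2) were the lower ones (9.52%, where 4.21% of all probe sets were).

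A less strict pair of thresholds, an unadjusted p under 0.001 with a log2 difference above 0.7 or below -0.7, was passed by 15 probe sets (0.059%), 8 higher (0.0315%) and 7 lower (0.0275%) in PianpKO amygdala. Of these, 3 are unnamed here. The named higher genes were *Ccl28*, *Moap1*, *Irs4*, *Vgll3*, *Fezf1*, *Snord73a* and *Snord100*, and the named lower genes were *Pianp*, *Erdr1*, *Strip2*, *Drd1* and *Rgs9*. Apart from *Pianp* and *Ccl28* none of them passed after adjustment, so they are described by their values. The count fell to 10 when PianpKO replicate 2 was left out and to 11 for Control replicate 1, and it was 20 when Control replicate 2 was left out.

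**Figure D1:**
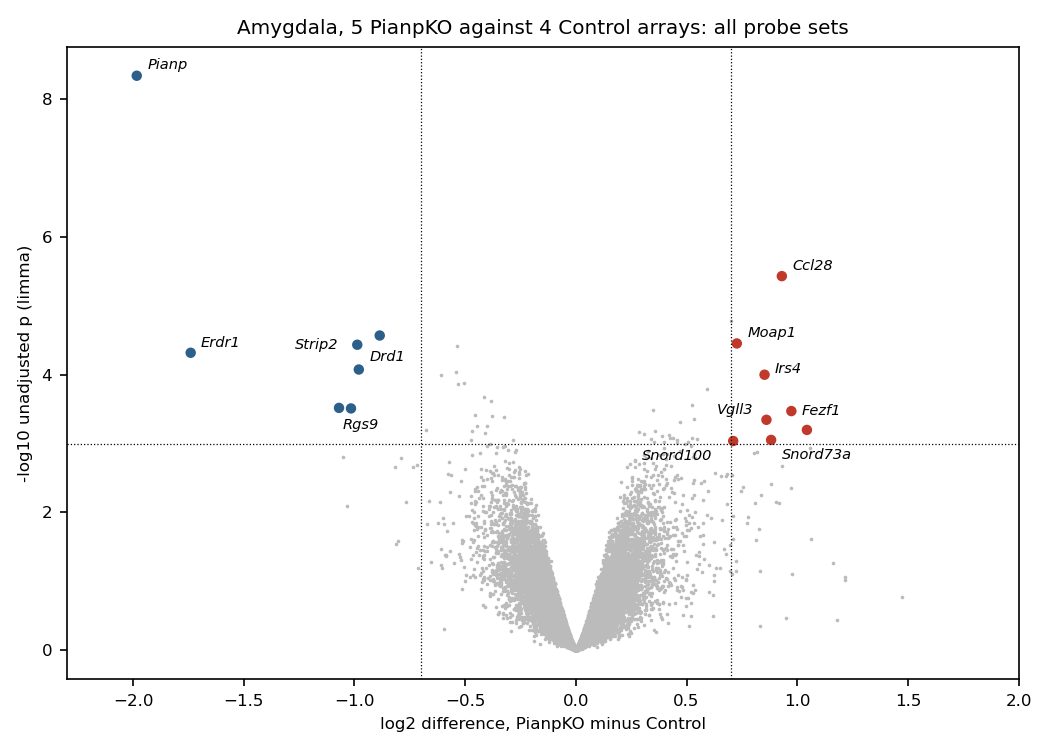
Each point is 1 probe set, with the log2 difference of PianpKO minus Control amygdala on the x axis and -log10 of the unadjusted limma p on the y axis. Dotted lines mark the pair of thresholds, and the 15 probe sets past both are coloured red where higher and blue where lower in PianpKO, with the 12 named ones labelled.

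After *Pianp*, the named lower gene with the largest difference was *Erdr1*, a secreted factor named for its part in red cell differentiation. Its level was 9.40, 8.25, 9.58, 9.54 and 9.07 in PianpKO arrays, against 11.09, 10.84, 10.46 and 11.26 in Control arrays. The groups were separated by 0.88 at their nearest arrays, and the difference was -1.74 (SE 0.264, adjusted p = 0.153), or -1.51 without PianpKO replicate 2, the lowest array. *Strip2*, a scaffold of the striatin-interacting phosphatase and kinase complex, had 6.52, 6.91, 7.03, 6.61 and 7.04 in PianpKO arrays, against 8.08, 7.64, 7.98 and 7.53 in Control arrays. These groups did not overlap either, with a difference of -0.99 (SE 0.145, adjusted p = 0.138). *Drd1*, the D1 dopamine receptor, and *Rgs9*, a regulator that shortens G protein signals downstream of dopamine receptors, are described with the striatal genes.

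Among the higher genes, *Moap1*, which binds the pro-apoptotic protein Bax, had 5.45, 5.66, 5.12, 5.41 and 5.52 in PianpKO arrays, against 4.52, 4.82, 4.75 and 4.74 in Control arrays (difference 0.73, adjusted p = 0.138). Of 15 apoptosis genes measured, 8 were higher and 7 lower. Beside *Moap1*, those with an unadjusted p under 0.05 were lower, namely *Bbc3* (-0.23), a BH3-only death effector, and *Xiap* (-0.21), a caspase inhibitor. That makes 6.67% of the list higher and 13.3% lower at that p, where 3.86% and 4.21% of all probe sets were. *Irs4*, an insulin receptor substrate known from the hypothalamus, had 5.64, 5.32, 5.76, 5.76 and 5.30 in PianpKO arrays, against 4.33, 4.86, 4.73 and 4.89 in Control arrays (difference 0.85, adjusted p = 0.214). *Fezf1*, a zinc finger transcription factor of the developing forebrain and hypothalamus, had 7.05, 6.75, 7.51, 6.80 and 7.26 in PianpKO arrays, against 6.07, 5.94, 6.59 and 5.81 in Control arrays (difference 0.97, adjusted p = 0.391). In each of these 3 genes all PianpKO arrays lay above all Control arrays. *Vgll3*, a cofactor of TEAD transcription factors, fell into higher and lower PianpKO arrays, with 5.20, 5.10 and 5.10 in replicates 2, 4 and 5 and 4.52 and 4.44 in replicates 1 and 3, against 3.83, 4.24, 4.11 and 3.87 in Control arrays (difference 0.86, adjusted p = 0.426).

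**Figure D2:**
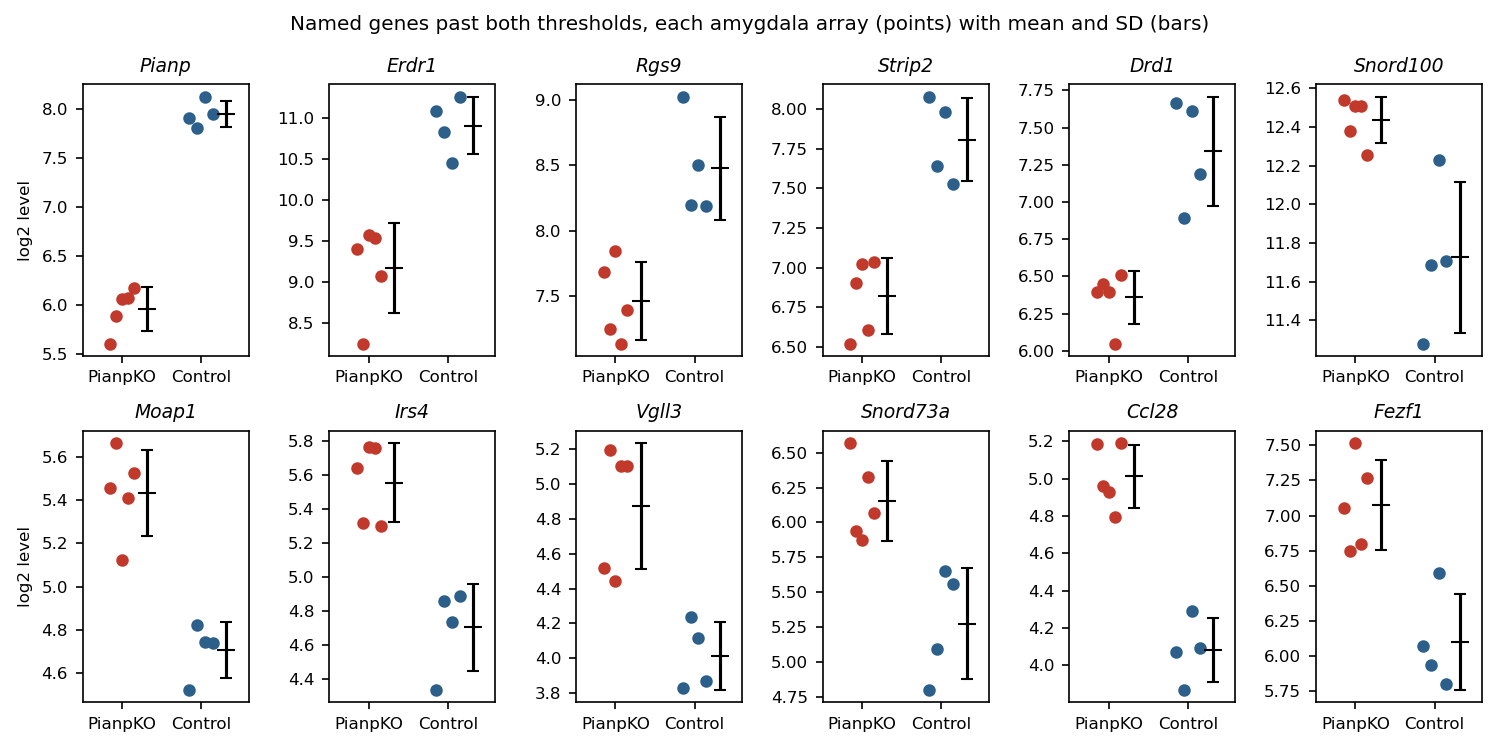
Log2 level of the 12 named genes past both thresholds in each amygdala array, with 5 PianpKO arrays in red and 4 Control arrays in blue. Bars give the mean and SD. Each panel has its own y axis, which does not start at 0. In all 12 genes the 2 groups do not overlap, where 2.46% of all probe sets do not. The 12 were picked by their differences in these same arrays, which favours such a gap.

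Below the fold threshold, several genes differed by less but with a small spread. *Esr1*, the estrogen receptor alpha of the medial amygdala and hypothalamus, had 5.97, 6.44, 6.29, 6.31 and 6.21 in PianpKO arrays, against 5.59, 5.65, 5.52 and 5.42 in Control arrays. The groups did not overlap, and the difference was 0.70 (SE 0.0942, adjusted p = 0.138), or 0.77 with an adjusted p of 0.0286 without PianpKO replicate 1. *Lgi2*, a secreted synaptic protein, averaged 7.95 ± 0.09 in PianpKO and 8.49 ± 0.14 in Control amygdala (SD, n = 5 and 4). *Mctp1*, a calcium-binding C2-domain membrane protein, averaged 8.04 ± 0.06 in PianpKO and 8.57 ± 0.19 in Control amygdala. *Ndst4*, a heparan sulfate sulfotransferase, averaged 6.44 ± 0.14 in PianpKO and 7.05 ± 0.19 in Control amygdala. Their adjusted p-values were 0.138, 0.214 and 0.214 in that order. In each of them every PianpKO array lay below every Control array, which the rule that named them required.

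*Fabp5*, a fatty acid carrier, averaged 4.51 ± 0.18 in PianpKO and 5.04 ± 0.04 in Control amygdala (adjusted p = 0.245). Its chromosome 3 companions *Impa1*, an inositol monophosphatase, and *Zfand1*, a zinc finger protein, differed by -0.27 and -0.41 (adjusted p = 0.481 and 0.564). *Gnpda2*, of amino sugar breakdown, differed by -0.41 and *Cda*, cytidine deaminase, by 0.52, while *Slc25a28*, a mitochondrial iron carrier, differed by 0.35 and *Man2b2*, a lysosomal mannosidase, by 0.34. The groups did not overlap in these 4 genes, which the rule that named them required for all but *Man2b2*. Their adjusted p-values ran from 0.337 (*Gnpda2*) to 0.465 (*Man2b2*). Without the fold threshold, 53 probe sets (0.208%) had an unadjusted p under 0.001, 29 higher (0.114%) and 24 lower (0.0944%), where 25.4 would pass if none differed. This count was 26 without Control replicate 1 and 32 without PianpKO replicate 2. The groups did not overlap in 625 probe sets (2.46%), 281 of them higher (1.11%).

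The broadest pattern by gene group was in genes of striatal projection neurons, the GABAergic spiny neurons that carry dopamine receptors and their cAMP signalling proteins and that make up most of the striatum. Many of these genes are also active in central and intercalated amygdala neurons. Of 29 measured, 27 were lower and 2 higher in PianpKO amygdala, where 51.3% of all probe sets were lower, and 14 (48.3%) were lower with an unadjusted p under 0.05, where 4.21% of all probe sets were. None passed after adjustment. The median difference was -0.31, against -0.0034 over all probe sets. The list was chosen with earlier results of these data known, so these shares are not those of a list fixed beforehand. The groups did not overlap in 8 members, all lower, where 1.35% of all probe sets were lower without overlap. In Control arrays the list averaged 7.74 in amygdala, 7.81 in cortex, 7.45 in hippocampus and 8.03 in hypothalamus. How much striatal tissue each punch held was not tested. In these bulk samples, fewer cells of a type and less RNA per cell cannot be told apart.

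Among the dopamine receptors, *Drd1* had 6.40, 6.45, 6.39, 6.05 and 6.51 in PianpKO arrays, against 7.67, 6.89, 7.61 and 7.19 in Control arrays. The difference was -0.98 (SE 0.159, adjusted p = 0.214). *Drd2*, the D2 receptor of the indirect pathway neurons, had 6.85, 6.63, 7.18, 6.30 and 6.49 in PianpKO arrays, against 8.39, 7.20, 8.01 and 7.37 in Control arrays. The groups nearly touched, at 7.18 in PianpKO replicate 3 and 7.20 in Control replicate 2, and the difference was -1.05 (SE 0.249, adjusted p = 0.487). *Drd3*, the third receptor of the list and named after its values were seen, differed by -0.06.

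All 12 members of the signalling chain downstream of these receptors were lower, where 51.3% of all probe sets were. At an unadjusted p under 0.05, 7 of them (58.3%) were lower, where 4.21% of all probe sets were. *Rgs9* had 7.68, 7.25, 7.85, 7.14 and 7.39 in PianpKO arrays, against 9.02, 8.20, 8.50 and 8.19 in Control arrays (difference -1.02, SE 0.193, adjusted p = 0.391). *Ppp1r1b*, which encodes the dopamine-regulated phosphatase inhibitor DARPP-32, had 8.93, 9.02, 8.62, 8.85 and 8.80 in PianpKO arrays, against 9.87, 9.30, 9.71 and 9.19 in Control arrays (difference -0.68, adjusted p = 0.465). The groups did not overlap in either gene. *Pde10a*, the phosphodiesterase most abundant in spiny neurons, was nearly constant among PianpKO arrays (7.69, 7.62, 7.73, 7.63 and 7.74) and spread among Control arrays (9.07, 8.04, 8.70 and 8.08), with a difference of -0.79. The calmodulin-dependent phosphodiesterase *Pde1b* (-0.35) and *Gpr6* (-0.57), an orphan receptor of indirect pathway neurons, did not overlap either. *Pde10a*, *Pde1b* and *Gpr6* were picked after their values were seen, as members whose groups did not overlap.

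The 3 neuropeptide genes of these neurons were lower to different degrees. *Tac1*, the substance P precursor, had 7.11, 6.53, 7.01, 6.93 and 6.41 in PianpKO arrays, against 7.61, 7.12, 7.52 and 7.21 in Control arrays. Its groups did not overlap, with a difference of -0.57 (SE 0.161, adjusted p = 0.509). The enkephalin precursor *Penk* differed by -0.29 and the dynorphin precursor *Pdyn* by -0.12, and both were named after their values were seen. *Scn4b*, the sodium channel β4 subunit, had a large but uneven difference of -1.03 (SE 0.316, adjusted p = 0.55), with 5.74, 6.82, 6.20, 5.94 and 6.98 in PianpKO arrays, against 8.24, 7.10, 7.26 and 6.87 in Control arrays. PianpKO replicate 5 lay above Control replicate 5. Transcription factors of the lineage differed least as a group, with 5 of 7 lower and a median of -0.13.

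The mean level of the 29 genes was 7.37, 7.38, 7.42, 7.30 and 7.39 in PianpKO arrays, against 8.03, 7.57, 7.81 and 7.54 in Control arrays. The PianpKO arrays lay close together and below all Control arrays, among which replicates 1 and 3 were the highest. Without Control replicate 1 the median difference was -0.21, with 26 members lower and 11 of them at an unadjusted p under 0.05. Without any other single array the median ran from -0.41 to -0.26 and the number at that p from 12 to 16. In the same mice, the median difference of the list was 0.11 in cortex, -0.22 in hippocampus and -0.26 in hypothalamus. The difference of *Drd1* between the amygdala and the mean of the other regions was -0.81 (SE 0.307), with an adjusted p of 0.999 and an unadjusted limma p of 0.0119.

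**Figure D3:**
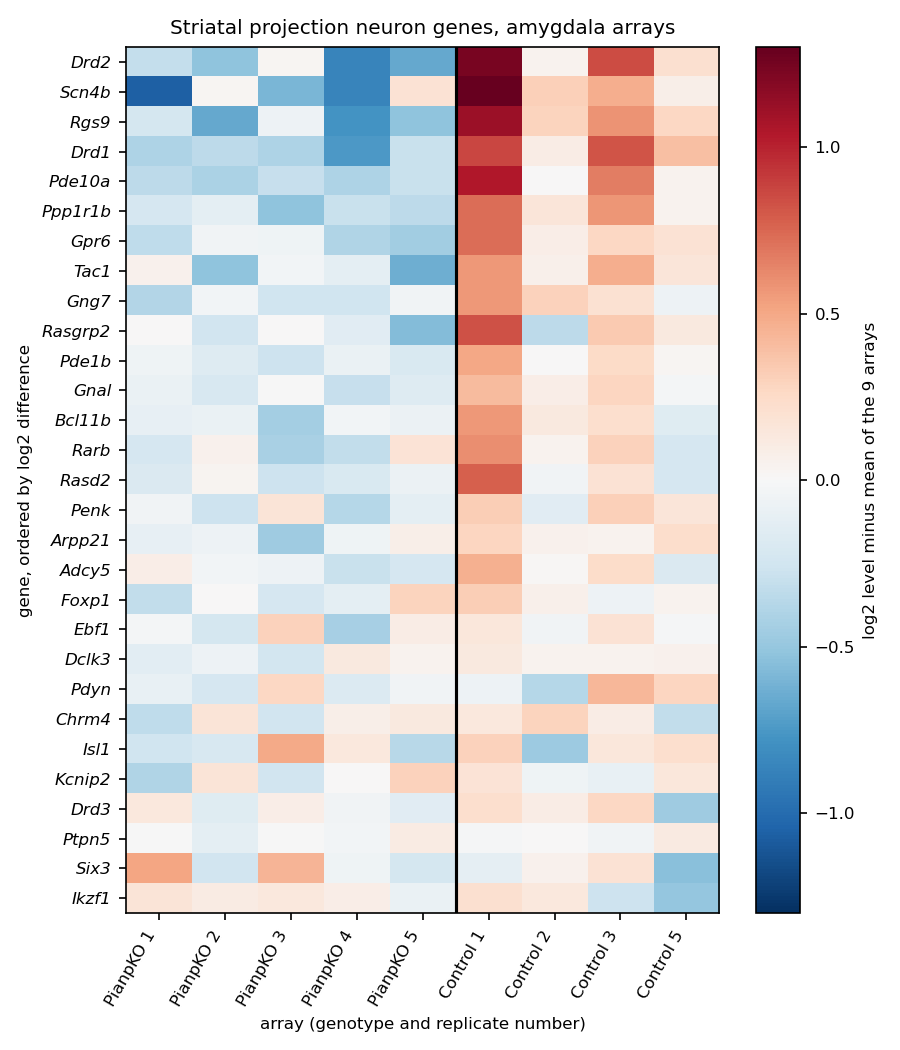
Log2 level of the 29 striatal projection neuron genes minus each gene's mean over the 9 amygdala arrays, with genes as rows in the order of their difference and arrays as columns, 5 PianpKO arrays left of the line and 4 Control arrays right of it. Red is above and blue below the mean. Control replicates 1 and 3 are the reddest columns, and *Six3* and *Ikzf1* at the bottom are the 2 members higher in PianpKO.

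Because these genes lay lower together, the sequence before the start of a dopamine receptor gene, a signalling gene and a peptide gene is shown, each the member of its role with the smallest p among those whose groups did not overlap and that have 1 start in the RefSeq promoter table (GRCm38.p6). The 250 bases before each start are given 5′ to 3′ on the gene's strand, in lower case, with matches to any searched motif in capitals. *Drd2* lies on the + strand (chr9:49340153-49340402), *Rgs9* on the - strand (chr11:109298182-109298431) and *Tac1* on the + strand (chr6:7554811-7555060).
*Drd2*: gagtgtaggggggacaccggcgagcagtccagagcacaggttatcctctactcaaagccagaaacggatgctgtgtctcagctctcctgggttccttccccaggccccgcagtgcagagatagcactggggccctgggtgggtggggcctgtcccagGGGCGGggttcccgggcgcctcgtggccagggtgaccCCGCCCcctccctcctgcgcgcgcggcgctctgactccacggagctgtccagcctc
*Rgs9*: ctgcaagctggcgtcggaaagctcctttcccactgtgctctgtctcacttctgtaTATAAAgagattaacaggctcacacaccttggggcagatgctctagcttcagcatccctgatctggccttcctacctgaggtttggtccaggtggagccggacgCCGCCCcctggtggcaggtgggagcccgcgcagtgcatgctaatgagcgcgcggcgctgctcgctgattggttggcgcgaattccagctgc
*Tac1*: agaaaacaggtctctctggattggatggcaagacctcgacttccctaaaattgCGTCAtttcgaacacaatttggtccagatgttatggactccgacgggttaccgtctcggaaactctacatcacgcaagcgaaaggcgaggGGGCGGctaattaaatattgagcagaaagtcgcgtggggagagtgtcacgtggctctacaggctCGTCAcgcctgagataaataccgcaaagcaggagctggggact
The motifs, searched on both strands, were the full cAMP response element TGACGTCA, its core TGACG (which the full element contains), the GC box GGGCGG and the TATA box TATAAA. The window of *Drd2* held 2 GC boxes, that of *Rgs9* 1 GC box and 1 TATA box, and that of *Tac1* 2 cAMP response element cores and 1 GC box. Of all 32851 windows in the table, 1.55% held the full element, 17.8% its core, 32.7% a GC box and 12.4% a TATA box. Of the 29 striatal genes, 25 have a window, 45 windows in all since a gene can have several starts. The full element was in 1 of these 45 windows, its core in 7, a GC box in 16 and a TATA box in 1. A match is a description of the letters.

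Genes of the dopamine, serotonin and noradrenaline systems were set beside them. Of 29 measured, 9 were higher and 20 lower (69.0%, where 51.3% of all probe sets were lower), with 3 higher and 3 lower at an unadjusted p under 0.05, where 3.86% and 4.21% of all probe sets were, and a median of -0.05. Of the 19 receptors, which include *Drd1* to *Drd3* of the striatal list, 15 were lower (78.9%), 3 of them and none of the higher ones at that p. Beside *Drd1* and *Drd2*, the lower member was *Htr2a*, the serotonin 2A receptor, with 8.06, 8.14, 8.03, 8.25 and 8.26 in PianpKO arrays, against 8.52, 8.45, 8.66 and 8.48 in Control arrays (difference -0.38, adjusted p = 0.416). Its groups did not overlap. The higher members were *Slc18a2*, the vesicular monoamine transporter (0.68, adjusted p = 0.506), *Th*, tyrosine hydroxylase, the first enzyme of catecholamine synthesis (0.78, adjusted p = 0.552), and *Maob*, a monoamine oxidase (0.23). For *Th* the levels were 5.63, 5.24, 6.43, 5.08 and 5.32 in PianpKO arrays, against 4.33, 4.94, 5.07 and 4.72 in Control arrays. The groups were 0.01 apart at their nearest arrays. *Th* and *Maob* were named after their values were seen.

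The GABAB receptor genes, whose protein product Pianp binds, differed little. *Gabbr1*, which encodes the GB1 subunits, had 11.86, 11.69, 11.78, 11.76 and 11.78 in PianpKO arrays, against 11.71, 11.82, 11.79 and 11.75 in Control arrays. The groups lay on top of each other, and the difference was 0.01 with a 95% interval of -0.12 to 0.14. One probe set covers the gene, so the isoforms GB1a and GB1b were not separated. *Gabbr2*, the subunit that couples the receptor to its G protein, differed by 0.08 (-0.08 to 0.25). Of the KCTD subunits that shape the receptor's kinetics, *Kctd8* differed by 0.16, *Kctd12* by -0.19 (-0.44 to 0.05), *Kctd12b* by 0.22 and *Kctd16* by -0.0047 (-0.32 to 0.31). The other ligands of the sushi domain were *Ajap1* (0.05) and *App* (-0.07), and the App relatives *Aplp1* and *Aplp2* differed by 0.04 and -0.14. *Aplp2*, with an interval of -0.28 to -0.01 and an adjusted p of 0.603, was the lone member of the 10 beside *Pianp* with an unadjusted p under 0.05. The median over these 10 was 0.03.

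Among 20 effectors of the receptor, 7 were higher and 13 lower, with a median of -0.04. *Gnb5*, a G protein β subunit that pairs with regulators such as Rgs9, differed by -0.20, and *Kcnj3*, the potassium channel subunit opened by GABAB receptors, by -0.33, both with an unadjusted p under 0.05 (10% of the list, where 4.21% of all probe sets were lower). Of 18 genes for the ligand receptors and processing enzymes of Pianp, 9 were higher and 9 lower, between -0.13 and 0.21. *Pcsk6*, a proprotein convertase, had the smallest p, with a difference of 0.21, and *Adam10*, a sheddase, differed by -0.13. Glutamate receptors, GABA synthesis and GABAA receptor genes, and synaptic vesicle genes had medians of 0.01, -0.05 and 0.00. Their members with the smallest p were *Grm2* (0.41), *Gabre* (0.54) and *Unc13c* (-0.47). The 10 measured genes on either side of *Pianp* on chromosome 6 differed by -0.35 to 0.21, 8 higher and 12 lower.

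Hypothalamic and medial amygdala genes included several of the higher genes. Of 18 hypothalamic transcription factors and other markers, 13 were higher and 5 lower (72.2% higher, where 48.7% of all probe sets were), with *Irs4*, *Fezf1* and *Six6* (0.36) at an unadjusted p under 0.05 (16.7%, where 3.86% of all probe sets were). The median was 0.05. The mean level of the list was 4.91, 4.93, 5.16, 5.01 and 4.92 in PianpKO arrays, against 4.70, 4.77, 4.89 and 4.84 in Control arrays. These means did not overlap, but they include *Irs4* and *Fezf1*, already picked by their differences in these same arrays. The groups did not overlap in those 2 members alone, so the means do not describe the list as a whole. Of 14 hypothalamic neuropeptides, 9 were higher and 5 lower with a median of 0.27, which was 0.10 without Control replicate 1 and 0.50 without Control replicate 3. *Gal*, galanin, had 5.59, 5.37, 5.51, 6.07 and 5.73 in PianpKO arrays, against 4.36, 4.60, 5.33 and 5.48 in Control arrays (difference 0.71, adjusted p = 0.55). *Cartpt*, a peptide of feeding and stress circuits, differed by 0.45 (adjusted p = 0.564). Both overlapped between the groups.

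Peptides of magnocellular and thyrotropic neurons varied widely between mice of 1 genotype. *Avp*, vasopressin, had 12.19, 11.10, 12.45, 9.75 and 10.63 in PianpKO arrays, against 9.55, 10.38, 10.86 and 10.20 in Control arrays. *Oxt*, oxytocin, named after its values were seen, had 8.07, 7.11, 9.40, 6.22 and 6.75 in PianpKO arrays, against 5.38, 6.78, 7.56 and 5.45 in Control arrays. PianpKO replicate 3 was the highest array for both, and PianpKO replicates 4 and 5 lay within the Control range for both. *Trh*, thyrotropin-releasing hormone, had 8.07, 6.56, 8.98, 7.09 and 7.05 in PianpKO arrays, against 5.34, 5.92, 7.65 and 6.65 in Control arrays. The differences were 0.98, 1.22 and 1.16 for *Avp*, *Oxt* and *Trh*, with intervals that reach below 0. That of *Oxt* was 0.75 without PianpKO replicate 3. The receptor *Trhr* was less variable, with 6.62, 6.53, 6.58, 7.24 and 6.80 in PianpKO arrays, against 5.58, 5.93, 5.77 and 6.47 in Control arrays. Its groups did not overlap, with a difference of 0.82 (SE 0.189, adjusted p = 0.481). How much hypothalamic tissue each punch held was not tested.

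Of 21 genes that mark neurons of the central, medial and intercalated nuclei, 11 were higher and 10 lower, and none passed after adjustment in limma. *Esr1*, *Dlk1* (0.61), a Notch-like membrane protein of peptide neurons, and *Cartpt* were higher at an unadjusted p under 0.05. *Meis2*, a homeobox factor of striatal, central and intercalated neurons, *Foxp2* (-0.51), a forkhead factor of intercalated neurons, and *Crh* were lower at that p, 14.3% of the list in each direction, where 3.86% and 4.21% of all probe sets were higher and lower. *Meis2* had 6.30, 6.22, 6.27, 6.15 and 6.15 in PianpKO arrays, against 6.98, 6.60, 6.69 and 6.61 in Control arrays (difference -0.50, SE 0.086, adjusted p = 0.245). *Crh*, the corticotropin-releasing hormone of central amygdala neurons, had 4.41, 4.51, 4.70, 4.40 and 4.46 in PianpKO arrays, against 4.80, 5.16, 4.79 and 4.77 in Control arrays (difference -0.39, adjusted p = 0.506). In both genes the groups did not overlap.

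Of 16 basolateral and pallial glutamatergic genes, 10 were higher and 6 lower, with a median of 0.06. *Etv1*, an ETS transcription factor of projection neurons, averaged 8.33 ± 0.08 in PianpKO and 7.98 ± 0.19 in Control amygdala without overlap (adjusted p = 0.506), *Lypd1*, a modulator of nicotinic receptors, differed by 0.35, and *Nr2f2*, a nuclear receptor of the caudal forebrain, by 0.19. *Tbr1*, a T-box factor of pallial glutamatergic neurons, differed by -0.30 (SE 0.148). Of 42 genes of stress and anxiety peptide systems, 18 were higher and 24 lower. *Trhr*, *Gal*, *Sstr1* (0.24), a somatostatin receptor, *Adcyap1* (0.51), the PACAP precursor, and *Npy2r* (0.26), a neuropeptide Y receptor, were the higher members at an unadjusted p under 0.05, and *Crh*, *Tac1*, *Crhr1* (-0.17), the main CRH receptor, and *Sgk1* (-0.35), a glucocorticoid-induced kinase, were among the 6 lower ones. These are 11.9% and 14.3% of the list, where 3.86% and 4.21% of all probe sets were higher and lower at that p. *Adcyap1*, *Npy2r*, *Crhr1*, *Sgk1* and *Foxp2* were named after their values were seen.

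Small nucleolar RNAs, which guide chemical modification of ribosomal RNA, leaned higher. Of 99 measured, 84 (84.8%) were higher in PianpKO amygdala, where 48.7% of all probe sets were, and 25 (25.3%) were higher with an unadjusted p under 0.05, where 3.86% of all probe sets were, while 0 were lower at that p. None passed after adjustment in limma, and 3 of the 99 had an unadjusted p under 0.001, where 0.208% of all probe sets did. The C/D box class, which directs methylation of ribose, held 56 of 65 higher with a median of 0.25, and the H/ACA box class, which directs pseudouridine formation, 28 of 34 with a median of 0.18. *Snord73a* had 6.57, 5.94, 5.88, 6.32 and 6.07 in PianpKO arrays, against 4.80, 5.09, 5.65 and 5.55 in Control arrays (difference 0.88, adjusted p = 0.465). *Snord100* had 12.54, 12.38, 12.51, 12.51 and 12.26 in PianpKO arrays, against 11.28, 11.69, 12.23 and 11.71 in Control arrays (difference 0.71, adjusted p = 0.465). *Snora36b*, of the H/ACA class, averaged 3.64 ± 0.21 in PianpKO and 3.12 ± 0.15 in Control amygdala. In all 3 the groups did not overlap. *Snord1b* differed by 1.06 (adjusted p = 0.479).

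The mean level of the 99 small nucleolar RNAs was 7.44, 7.73, 7.54, 7.32 and 7.06 in PianpKO arrays, against 7.17, 7.20, 7.32 and 6.88 in Control arrays. The groups overlapped, with replicate 5 the lowest array of each genotype. The median difference of 0.21 was 0.13 without Control replicate 5 and 0.14 without PianpKO replicate 2, and ran up to 0.28 without PianpKO replicate 5. In cortex, hippocampus and hypothalamus the medians were 0.25, 0.04 and 0.11. *Actb*, the cytoskeletal actin used as a reference gene, differed by 0.23 (adjusted p = 0.573).

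**Figure D4:**
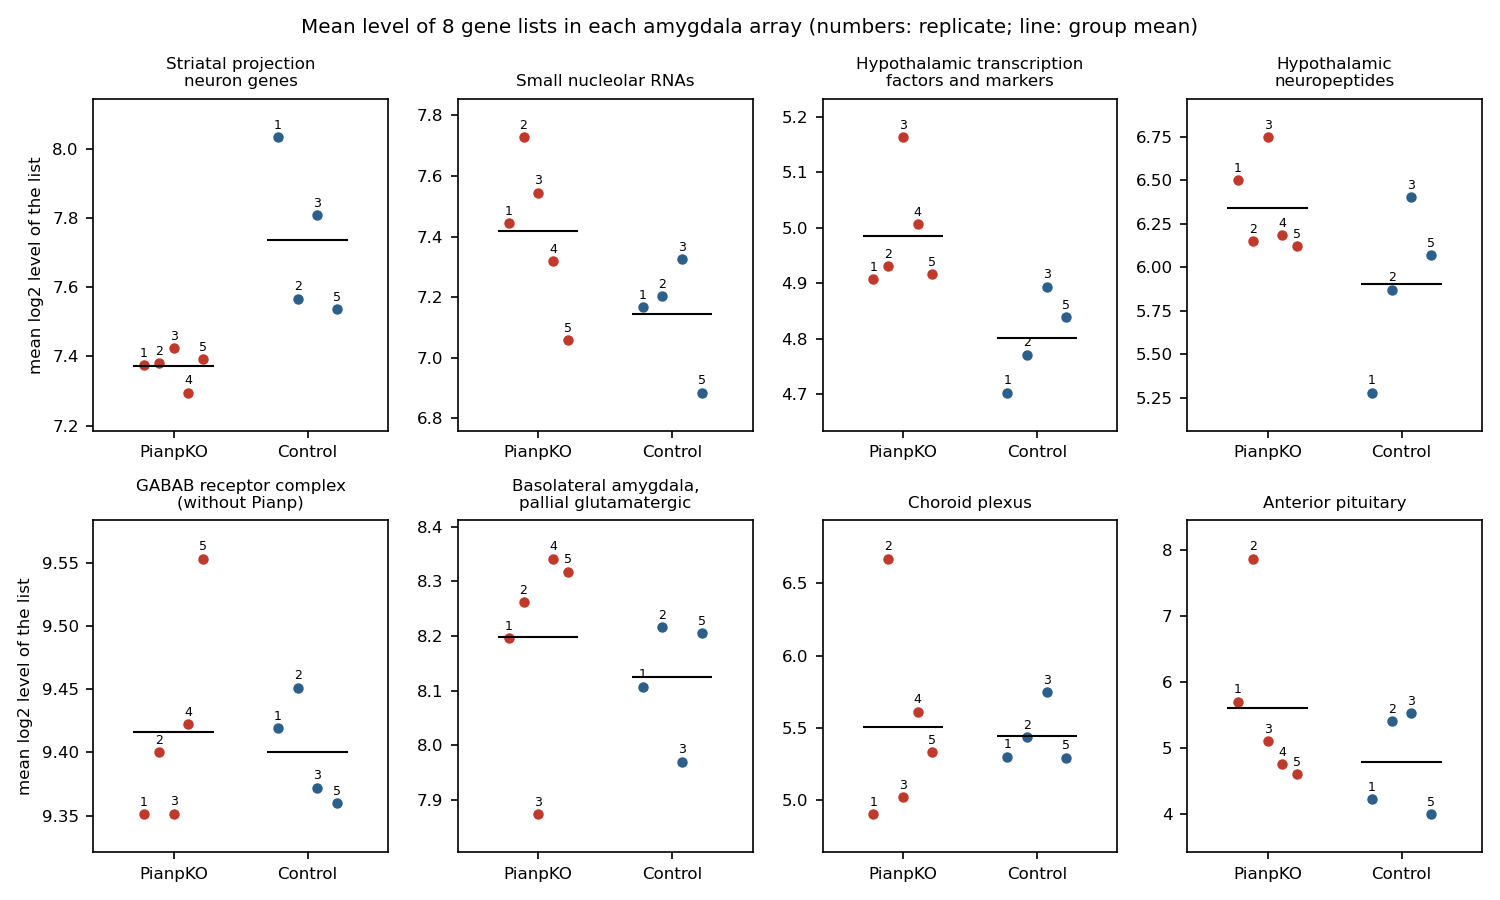
Mean log2 level of 8 gene lists in each of the 5 PianpKO (red) and 4 Control (blue) amygdala arrays. Numbers are replicate numbers, lines are group means, and each panel has its own y axis, which does not start at 0. The groups do not overlap for the striatal list and for the hypothalamic transcription factors and markers. The latter include *Irs4* and *Fezf1*, and both lists were chosen with earlier results of these data known. PianpKO replicate 2 stands apart for choroid plexus and anterior pituitary genes.

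Markers of other cells that a punch can hold were compared beside these groups. Oligodendrocyte (15 genes), astrocyte (13), endothelial (13) and meningeal (10) genes had medians of -0.04, 0.00, -0.01 and -0.04, and of thalamic (10), hippocampal (12) and cortical layer (10) genes the medians were 0.03, 0.00 and -0.04. Of the oligodendrocyte genes, 11 were lower. At an unadjusted p under 0.05, 15.4% of endothelial genes (*Itm2a*, -0.37, and *Slco1a4*, -0.25) were lower, where 4.21% of all probe sets were. So were 20% of cortical layer genes, among them *Cux1* (-0.25), while 10% of thalamic genes were higher. The oligodendrocyte, astrocyte, meningeal and hippocampal lists had no member at that p. Of 14 microglia genes, 9 were higher and 5 lower, with *Trem2* (0.29), a lipid-sensing receptor, *C1qb* (0.25), a complement subunit, and *Siglech* (0.27) higher and the transcription factor *Sall1* (-0.18) lower at an unadjusted p under 0.05 (21.4% and 7.14% of the list, where 3.86% and 4.21% of all probe sets were). All 5 blood genes were higher by 0.07 to 0.37, and none at that p. Their median of 0.28 was 0.04 without PianpKO replicate 1 and 0.06 without Control replicate 5, with 4 higher in each case. The blood genes averaged 3.95 in Control amygdala, a low level. The 7 anterior pituitary genes had a median of 0.83, which was 0.19 without PianpKO replicate 2, and none had an unadjusted p under 0.05. *Cga*, the shared subunit of the glycoprotein hormones, had 5.69, 9.36, 3.93, 5.06 and 3.73 in PianpKO arrays, against 3.40, 4.83, 4.80 and 3.31 in Control arrays. Its difference of 1.47 was 0.52 without PianpKO replicate 2. Of 10 choroid plexus genes 6 were higher with a median of 0.08, and without PianpKO replicate 2 only 1 was higher and the median was -0.12. The 7 genes chosen as known to differ between C57BL/6 substrains differed by -0.07 to 0.13. The part of any of these in the differences above was not tested.

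To ask whether a difference was particular to the amygdala, the genotype difference in the amygdala was set against the mean of those in cortex, hippocampus and hypothalamus, with the mouse as a random block. After adjustment 0 probe sets (0%) differed in limma, while 21 (0.0826%) had an unadjusted p under 0.001 and 1117 (4.39%) one under 0.05. An F test over the 4 regions called 0 as well. So no gene was called particular to the amygdala, and the values of the regions are given side by side.

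*Pianp* differed by -1.98 in amygdala, -2.12 in cortex, -1.95 in hippocampus and -2.04 in hypothalamus. *Erdr1* was as even, with -1.74, -1.78, -1.77 and -1.83 in the same order, and *Ccl28* differed by 0.93, 0.90, 0.78 and 0.68. Its adjusted p in the regions' own fits was 0.0474 in amygdala, 0.0855 in cortex, 0.144 in hippocampus and 0.463 in hypothalamus, and the amygdala difference exceeded the mean of the others by 0.15 (SE 0.15, adjusted p = 0.999). *Snord73a* was higher by 0.88, 0.59, 0.44 and 0.50. These genes had the same direction in all 4 regions. Others did too, among them *Moap1*, higher by 0.73, 0.33, 0.14 and 0.32 in the same order. *Lgi2* differed by -0.54, -0.23, -0.43 and -0.32, and *Fabp5* by -0.53, -0.33, -0.39 and -0.47. *Impa1* differed by -0.27, -0.16, -0.21 and -0.26, and *Zfand1* by -0.41, -0.36, -0.67 and -0.48. *Strip2* had the smallest p for a difference between regions, with -0.99 in amygdala, -0.01 in cortex, 0.05 in hippocampus and -0.36 in hypothalamus, and the amygdala minus the mean of the others was -0.87 (SE 0.179, adjusted p = 0.45). *Fezf1* differed by 0.97, -0.22, -0.38 and 0.27 in the same order (1.08 above the mean of the others, SE 0.25, adjusted p = 0.751). *Esr1* differed by 0.70, 0.03, 0.21 and -0.33 (0.74 above the mean of the others, SE 0.2, adjusted p = 0.999). *Irs4* differed by 0.85, -0.06, 0.03 and -0.23. In Control arrays *Fezf1* averaged 6.10 in amygdala, 4.26 in cortex, 4.53 in hippocampus and 6.73 in hypothalamus, and *Irs4* 4.70, 3.60, 3.80 and 6.84, so both genes were lowest in cortex and highest in hypothalamus.

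**Figure D5:**
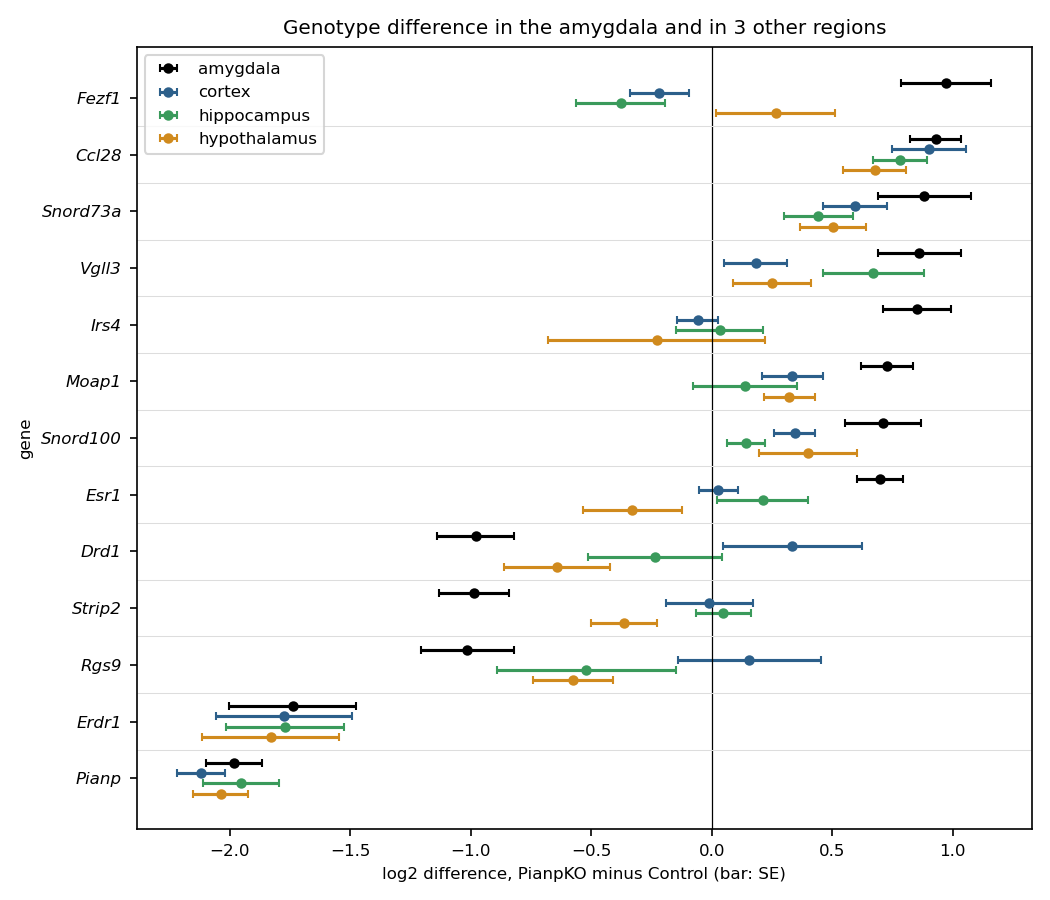
Log2 difference of PianpKO minus Control, with its SE as a bar, in the amygdala (black), cortex (blue), hippocampus (green) and hypothalamus (orange) for the 12 named genes past both thresholds and *Esr1*. *Pianp*, *Erdr1* and *Ccl28* have the same direction and a like size in all 4 regions, while *Fezf1*, *Irs4*, *Esr1*, *Strip2* and *Drd1* lie farther from 0 in the amygdala than in the cortex and hippocampus.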

How the data were processed

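Total RNA of punched amygdala was measured on Affymetrix arrays, which the authors summarised to 1 probe set for each Entrez gene and quantile-normalized. RMA is the tool that the submitters' processing notes list. Each sample has 1 column of deposited log2 levels. Raw intensities, detection calls and scan dates were not used here. For the 5 PianpKO and 4 Control arrays, PianpKO minus Control was fitted per probe set in R 4.3.3 with limma 3.58.1 (lmFit, eBayes), p-values were Benjamini-Hochberg adjusted over 25429 probe sets, and 0.05 was the threshold. The thresholds used in the study (0.7 and p under 0.001) were applied beside it, where its methods name an ANOVA. Regions were compared over all 39 arrays with the mouse as a random block (statmod 1.5.0). Each amygdala array is a separate mouse, and their number limits the precision (median SE 0.091). The members, gene lists and rule for named genes were chosen with earlier results of these data known. The rule took genes past a threshold, up to 10 higher and 10 lower by p without overlap, up to 4 per list, the GABAB complex and genes with primers. The rerun alternatives are given with the closing section. Symbols came from the platform annotation and RefSeq (GRCm38.p6). 0 columns were left out.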

Additional observations from a re-analysis of the deposited data

Results flagged for a closer look

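In each group of 4 or 5 amygdala arrays, the gap of the highest or lowest array to its neighbour was set against the whole range of the group. Of 250 such groups, 10 held an array far from the others, and chance gives about 5% of groups. In PianpKO amygdala, *Drd1* was 6.05 in replicate 4, against 6.39 to 6.51 in the other arrays. *Siglech*, a microglial lectin, was 5.11 in PianpKO replicate 1, against 5.41 to 5.53. The mean level of the GABA synthesis and GABAA receptor genes was 9.32 in PianpKO replicate 3, against 8.90 to 9.01.

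In Control amygdala, replicate 1 was far from the others for *Nr2f2* (7.78, against 7.69 to 7.70), *App* (12.448, against 12.412 in the 3 others) and the sodium channel gene *Scn2a* (11.127, against 11.035 to 11.045), by less than 0.1 each. Replicate 2 was far from the others for *Crh* (5.165, against 4.77 to 4.80) and for *Pomc*, the precursor of the pituitary hormone ACTH (7.15, against 3.75 to 4.14). Replicate 3 was far from the others for *Man2b2* (7.58, against 7.28 to 7.32) and for the mean level of the synaptic vesicle release genes (9.81, against 9.78). *Pomc* averaged 6.01 in PianpKO and 4.79 in Control amygdala, with an unadjusted limma p of 0.0948. The difference of 1.22 was 2.00 without Control replicate 2 and fell as low as 0.87 without another single array. None of these arrays was left out of the comparison.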

How the results depend on the processing

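Of 93 single genes rerun under the alternatives, 81 kept their direction and their side of the threshold in all of them. Only *Pianp* and *Ccl28* passed in the main fit, so for the others keeping their side meant not passing again. *Pianp* passed in all alternatives, and *Ccl28* lost its call in 11. Of 32 list medians, 15 kept their direction in all of them, and the 17 that turned in at least 1 alternative were at most 0.0842 from 0 as reported. The number of probe sets passing an adjusted p of 0.05 was 2 and became 1 with a filter on dim probe sets (12714 kept), with array weights, with the replicate block and with the ANOVA of the methods within the amygdala, 4 with a trend and robust prior, 5 with that ANOVA over all 8 groups and 9 in the fit over all 8 groups with the mouse as a random block, which also uses the spread of the other regions. It ran from 1 to 2 without single arrays. In the fit over all 8 groups *Erdr1* (adjusted p = 0.00264), *Lgi2* (0.00281), *Strip2* (0.00504), *Mctp1* (0.0352) and *Snord73a* (0.0352) passed. The 53 probe sets at an unadjusted p under 0.001 became 34 and 90 with the ANOVA within the amygdala and over all 8 groups, 110 in the fit over all 8 groups with the mouse block, and 26 to 76 without single arrays. The 15 past both thresholds became 6 with the ANOVA within the amygdala and 22 with a trend and robust prior. Why these counts moved was not tested.

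PianpKO and Control arrays that share a number come from different mice. For the 4 shared numbers, deviations from the group means correlated at -0.0557 to 0.236, against -0.34 to 0.247 for other pairs, and 1 PianpKO array correlated best with its own number. With the replicate number as a block, over 8 arrays, 1 probe set was called and *Ccl28* had a difference of 0.98 (adjusted p = 0.405).

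Differences near 0 turned. *Gabbr1* was -0.0074 and *Kctd16* 0.056 with array weights. Without single arrays *Gabbr1* ran from -0.014 to 0.029, *Kctd16* from -0.0999 to 0.0895, *Drd3* from -0.223 to 0.0194, *Prkcd* from -0.242 to 0.129 and *Pdyn* from -0.265 to 3.67e-05. The filter on dim probe sets left a median of 0.95 for the hypothalamic neuropeptides, which it reduces to their brighter members. No probe set differed between the regions after adjustment under any alternative run. At an unadjusted p under 0.05 there were 528 with the filter on dim probe sets, which tests fewer of them. In the other alternatives counted at that p there were 867 to 1463.

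With 5 and 4 mice the median SE of a difference was 0.091, so a difference of the size of that SE is not resolved. Low levels near the floor of the arrays are compressed, and without detection calls no gene was called absent. Batch, age and dissection cannot be told apart from genotype by these labels.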
